A study of Mus musculus with 12 samples.

Results

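The circadian output genes described here are the PAR bZIP activators Dbp, Tef and Hlf, the repressors Nfil3, Bhlhe40 and Bhlhe41, the nuclear receptor Rora, the deubiquitinase gene Usp2 and the kinase gene Wee1. They were taken by symbol from a table of read counts in mouse liver, where they are 9 of 22537 genes, and all 9 were among the 13968 genes with enough reads to be tested. Poly-A RNA was sequenced from whole liver of female mice of C57BL/6 strain background, aged 6 months, all of which had eaten a high-fat diet during 13 weeks. The 4 genotypes, with 3 libraries each, were labelled AHR Flox and AHR KO for the aryl hydrocarbon receptor gene, and ARNT Flox and ARNT KO for the gene of its dimer partner. "Flox" marks the floxed control of each knockout, and the title places the loss of AHR or ARNT in the liver. The recombinase and the promoter that drives it, the deleted part of each gene and the time of day at which liver was taken are each not given in the sources at hand. The labels do not say that each library is a separate animal, so the p-values measure the spread between these libraries. In whole liver, fewer cells of a type and less RNA per cell cannot be told apart.

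In the circadian clock, CLOCK and its partner BMAL1 bind E-boxes and drive the genes of their own repressors as well as output genes such as Dbp, Tef, Bhlhe40, Bhlhe41 and Usp2. DBP, TEF and HLF activate through D-boxes, which NFIL3 (E4BP4) occupies as a repressor, while RORA activates through elements that the REV-ERB repressors share. In liver these factors pass daily rhythm on to genes of drug, haem and lipid metabolism. ARNT belongs to the same bHLH-PAS protein family as CLOCK and BMAL1, and AHR binds DNA as a dimer with ARNT.

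Library totals lay between 23585909 and 33255004 reads in genes, so that 3 counts, the limit a count of 0 allows, correspond to 0.0861 to 0.126 CPM, the reads of a gene scaled to the library's TMM-adjusted total. This limit covers counting error only. Arnt stood at 19.0 to 25.2 CPM in ARNT KO and 47.8 to 52.5 CPM in ARNT Flox, with an edgeR adjusted p of 0.00601. Ahr stood at 80.3 to 94.8 CPM in the libraries labelled AHR KO and 53.9 to 78.8 CPM in AHR Flox (adjusted p = 0.47). Reads over the whole gene cannot check a deletion of unknown extent, so the AHR KO label was not checked by Ahr. All 7 hepatocyte markers were detected, with summed levels of 109000 to 119000 CPM in AHR Flox, 38700 to 48100 in AHR KO, 93100 to 114000 in ARNT Flox and 26400 to 84800 in ARNT KO. Alb, the albumin gene, carried the difference between AHR Flox and AHR KO, with a log2 change of -3.74 that was not called (edgeR adjusted p = 0.0629). It stood at 78400 to 89300 CPM in AHR Flox and 5490 to 7090 CPM in AHR KO. The other 6 markers summed to 27000 to 30300 CPM in AHR Flox and 33200 to 41000 in AHR KO, the opposite direction. ARNT KO replicate 3 stood apart from the other 11 libraries on the first principal component, at 68.1 against -33 to 32.5.

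The promoters are shown first and were searched for the elements by which clock factors and ARNT dimers are known to act. The RefSeq promoter table for build GRCm38.p6 (mm10) matched 7 of the 9 genes, all but Bhlhe40 and Wee1, with 8 promoters of 300 bases since Tef has a pair of starts. The E-box CACGTG, which reads the same on both strands, was found in 3 of these 8 promoters, against 7.15% of all 32817 promoters in the table. The matches lay 127 and 138 bases before the RefSeq Tef starts and 153 bases before the Bhlhe41 start. The promoters of Dbp and Usp2 had 0 E-boxes within their 300 bases. The ROR and REV-ERB element, searched as ANTAGGTCA or ANTGGGTCA on both strands, was found only in Nfil3, 12 bases before its start, against 1.45% of all promoters. Distances are to RefSeq starts. The GENCODE M21 annotation begins Tef at 81802421 and Nfil3, on the minus strand, at 52981073. By that annotation the Tef and Nfil3 sites lie within the genes. So does the whole Usp2 promoter, at 44084670 to 44084969 on chromosome 9, in a gene that begins at 44067021. The sequence before that annotated Usp2 start was not searched. The sites are given 5′ to 3′ on the strand of the gene, with the matched letters in capitals.
Tef first start, chr15:81802534-81802563, plus strand: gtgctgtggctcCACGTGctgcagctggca
Tef second start, chr15:81811264-81811293, plus strand: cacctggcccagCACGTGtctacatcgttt
Bhlhe41, chr6:145865556-145865585, minus strand: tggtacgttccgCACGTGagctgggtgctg
Nfil3, chr13:52981032-52981061, minus strand: cgctcggaacTGACCTACTaacacacatct

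The core of the site bound by AHR with ARNT, GCGTG or CACGC on the other strand, was found in 6 of the 8 promoters, those of 6 genes, and in 32.4% of all promoters. Nfil3 was the gene of the 7 without it. Hlf had 4 such cores before its start, at 239, 112, 94 and 37 bases, and is shown for that number. Dbp is shown as the clock's best known output gene, with the stretch that precedes its annotated exons and, of its 2 cores, the farther from the start, at 193 bases. Capitals mark the cores.
Hlf, chr11:90390918-90391167, minus strand: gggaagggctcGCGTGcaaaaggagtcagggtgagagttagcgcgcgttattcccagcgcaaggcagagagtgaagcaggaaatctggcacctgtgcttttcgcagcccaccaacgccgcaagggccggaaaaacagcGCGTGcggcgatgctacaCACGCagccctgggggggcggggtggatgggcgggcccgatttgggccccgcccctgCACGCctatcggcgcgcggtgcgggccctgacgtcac
Dbp, chr7:45704997-45705087, plus strand: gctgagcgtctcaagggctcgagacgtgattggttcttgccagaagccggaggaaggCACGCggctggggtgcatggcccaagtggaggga
The core ACGTG of the site bound by hypoxia factors with ARNT overlaps the E-box and was found in 5 promoters of 4 genes, against 19.6% of all promoters. The D-box, searched as TTATGTAA or TTACGTAA, was found in 0 of the 8 promoters and in 1.05% of all. The GC content of the 8 promoters ran from 60.3% to 81.7%. A match is a run of letters and was not tested as a binding site.

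In neither knockout did a circadian output gene pass the test over all genes. Nfil3 was 1.61-fold higher in the libraries labelled AHR KO than in AHR Flox, with groups that did not overlap. Bhlhe41 was 2.65-fold lower there and 2.4-fold lower in ARNT KO, each with overlap between the groups. In AHR KO against AHR Flox, edgeR called 0 of 9, beside 0.0788% of all tested genes. At an unadjusted p under 0.05 there were 2 of the 9, Nfil3 higher and Bhlhe41 lower, beside 11.9% of all tested genes, and Nfil3 alone of the 9 did not overlap, beside 21.2%. In ARNT KO against ARNT Flox, 0 of 9 were called (0.0573% of all tested genes), 1 had an unadjusted p under 0.05 (5.88% of all), and 0 had groups that did not overlap (10.8% of all). DESeq2 and limma-voom also called 0 of 9 in both comparisons, DESeq2 giving no adjusted p for Bhlhe41 in AHR KO. The median log2 change of the 9 genes was -0.09 in AHR KO and -0.02 in ARNT KO, beside 0.01 for all tested genes in each.

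The difference between the knockout effects, ARNT minus AHR, was tested directly. The test called 0 of 9, with 0.043% of all tested genes called, and 0 of 9 had an unadjusted p under 0.05, with 9.51% of all. DESeq2 and limma-voom called 0 of 9 here as well. The lowest adjusted p was that of Nfil3, at 0.769 for a difference of -0.39 ± 0.29 (SE) on the log2 scale. The tests do not show that the 9 genes respond alike in both knockouts, since the 95% interval of that Nfil3 difference ran from -1.04 to 0.25.

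Levels between genes were compared per kilobase of annotated exon. Dbp was the highest at a mean of 51.0 CPM per kb over the 12 libraries, followed by Tef at 40.4 and Bhlhe40 at 35.8. Usp2 at 18.0 and Hlf at 17.2 CPM per kb came next, then Wee1 at 10.6 and Nfil3 at 9.22. Rora at 0.965 and Bhlhe41 at 0.282 CPM per kb were the lowest. Ranges over the libraries overlapped between each gene and the next in this order except between Nfil3 and Rora, although Hlf was above Wee1 and Rora above Bhlhe41 in 12 of 12 libraries. Dbp was above Tef in 10 of 12, and Usp2 above Hlf in 8 of 12. The annotation used for counting is not given in the sources used here, so such lengths, from GENCODE M21, may differ from those the counts were made with.

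**Figure D1:**
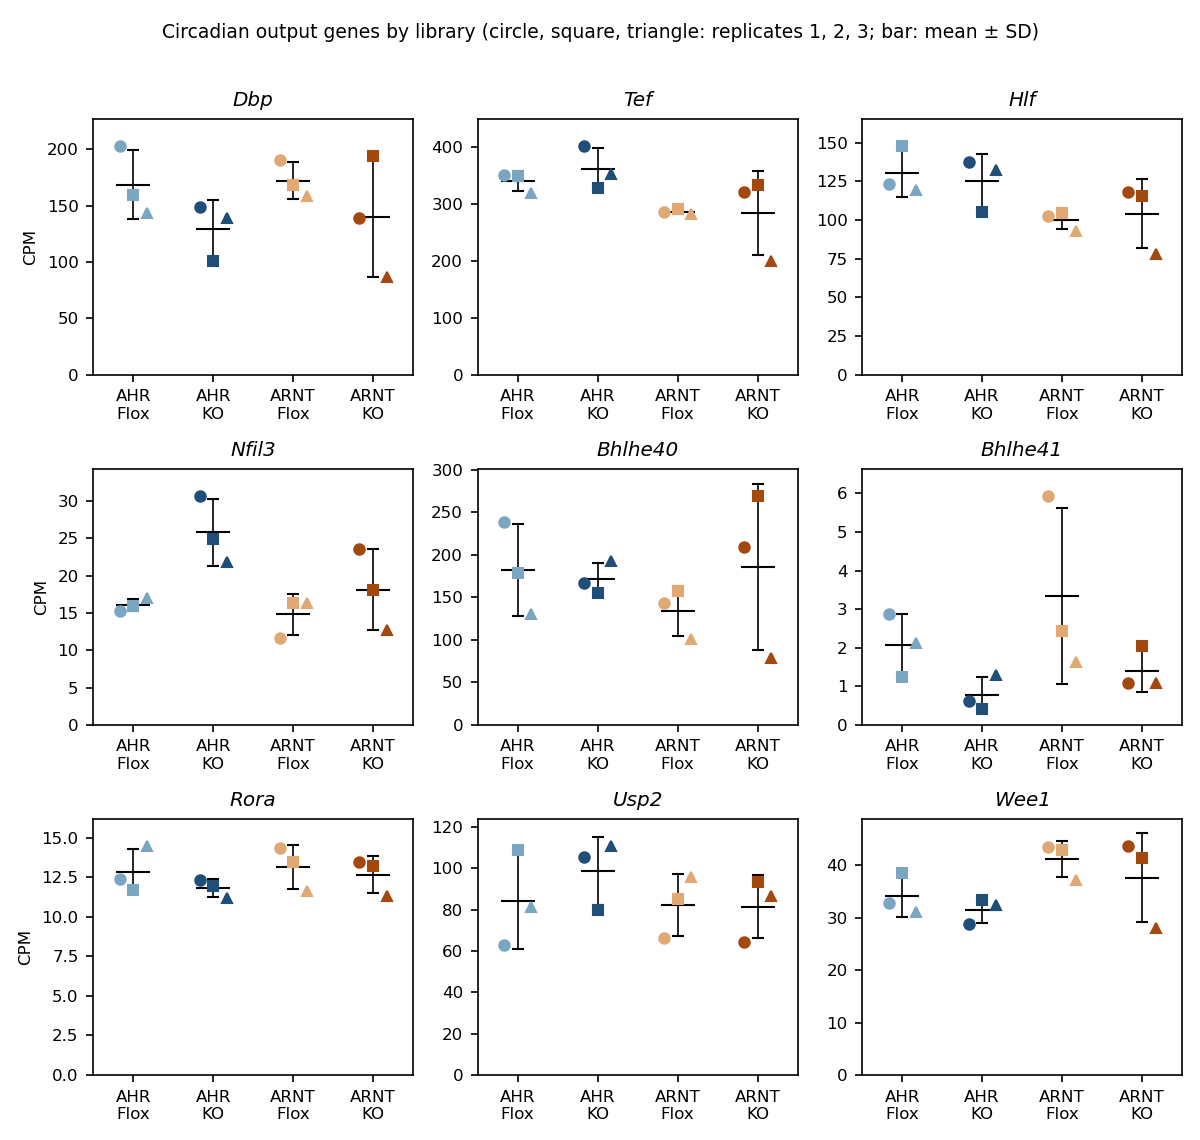
CPM of each of the 9 genes (vertical axes, linear, from 0) in the 3 libraries of each genotype (horizontal axis), with points for libraries, the dash and bar for the group mean and SD. The Nfil3 points of AHR KO lie above all AHR Flox points, at 21.8 to 30.6 against 15.3 to 16.9 CPM, and ARNT KO replicate 3 is the lowest point of 5 panels.

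Dbp encodes the activator whose level swings most widely over the day among the PAR bZIP factors in liver. It stood at 203, 159.8 and 143.5 CPM in the AHR Flox libraries, 149, 101 and 139 in those of AHR KO, 190.2, 168 and 158 under ARNT Flox and 139, 194 and 87.0 under ARNT KO. The lowest library of the 12 was ARNT KO replicate 3, and replicate 2 of the same group was among the highest, so that group spanned nearly the whole range. Group means were 169 ± 30.6 in AHR Flox and 129.5 ± 25.2 in AHR KO (SD, n = 3), a log2 change of -0.38 ± 0.25 (SE) with an edgeR adjusted p of 0.595. The ARNT Flox mean was 172 ± 16.4 and the ARNT KO mean 139.9 ± 53.5, for a log2 change of -0.30 ± 0.25 (adjusted p = 0.974). Without ARNT KO replicate 3 the latter was -0.05. Dbp, on chromosome 7 at 45705088 to 45710203 (mm10, plus strand), shares 539 exonic bases, 18% of its exons, with Sphk2 on the other strand. Sphk2 stood at 35.6 to 70.2 CPM, and the strand setting of the counting is not given in the sources used here.

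Tef, the activator with the pair of E-box promoters shown above, had 351, 349 and 319.7 CPM in the AHR Flox libraries, 401, 328 and 352 in those of AHR KO, 285, 290.4 and 283 under ARNT Flox and 321, 332 and 199 under ARNT KO. The 3 ARNT Flox libraries were nearly equal and all below AHR Flox, and ARNT KO replicate 3 was again the lowest of the 12. The change was 0.08 ± 0.16 in AHR KO (adjusted p = 0.893) and -0.01 in ARNT KO (adjusted p = 1). Without ARNT KO replicate 3, ARNT KO was 0.19 above ARNT Flox on the log2 scale (adjusted p = 0.328).

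Hlf, the activator with the 4 AHR-ARNT cores, had 123, 148 and 119 CPM in the AHR Flox libraries, 138, 105 and 133 in those of AHR KO, 102, 105 and 93.2 under ARNT Flox and 118, 116 and 78.2 under ARNT KO. As for Tef, all ARNT Flox libraries lay below all AHR Flox libraries and ARNT KO replicate 3 was the lowest. The log2 change was -0.06 ± 0.16 in AHR KO (adjusted p = 0.929) and 0.06 in ARNT KO (adjusted p = 1), the latter 0.23 without ARNT KO replicate 3.

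Nfil3, the repressor of D-box genes, had 15.3, 15.9 and 16.9 CPM in AHR Flox and 30.6, 24.9 and 21.8 in AHR KO. Its ARNT Flox libraries had 11.7, 16.4 and 16.4 CPM, and those of ARNT KO 23.6, 18.0 and 12.7. The 3 libraries labelled AHR KO were above every AHR Flox library, while in ARNT KO replicates 1 and 2 were above ARNT Flox and replicate 3 lay within it. Means were 16.04 ± 0.833 and 25.8 ± 4.46 CPM in AHR Flox and AHR KO (SD, n = 3), a log2 change of 0.69 ± 0.21 (SE) with a 95% interval of 0.23 to 1.14. Its unadjusted edgeR p was 0.00691 and its adjusted p 0.205, so it was not called. Between the same groups Alb was lower without overlap and the sum of the other 6 hepatocyte markers higher without overlap, as given above, and their part in the Nfil3 result was not tested. In ARNT KO the log2 change was 0.29 ± 0.21, with an interval of -0.17 to 0.75 and an adjusted p of 0.947. Leaving out ARNT KO replicate 3, which also enters the shared estimate of spread, gave 0.68 with an adjusted p of 0.0642 in AHR KO and 0.50 with an adjusted p of 0.206 in ARNT KO.

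Bhlhe40 (DEC1), a repressor that competes for E-boxes, had 239, 179 and 130.5 CPM in the AHR Flox libraries, 167, 156 and 193 in those of AHR KO, 143, 158 and 102 under ARNT Flox and 209, 269 and 78.7 under ARNT KO. ARNT KO held both the highest and the lowest of the 12 libraries, with a mean of 186 ± 97.3 (SD, n = 3). The log2 change there was 0.47 ± 0.36 (SE), with an interval of -0.33 to 1.26 and an adjusted p of 0.965. Without ARNT KO replicate 3 it was 0.84 (adjusted p = 0.11). In AHR KO the log2 change was -0.09 ± 0.36 (adjusted p = 0.955).

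Bhlhe41 (DEC2), the other E-box repressor, was the scarcest of the 9 and the most variable. It had 84, 36 and 51 counts in the AHR Flox libraries, 19, 13 and 41 in those of AHR KO, 199, 78 and 39 under ARNT Flox and 35, 64 and 38 under ARNT KO. ARNT Flox replicate 1 was the highest library at 5.92 CPM and AHR KO replicate 2 the lowest at 0.421, a 14.1-fold range, and each knockout overlapped its control. Means were 2.07 ± 0.816 CPM in AHR Flox and 0.775 ± 0.453 in AHR KO (SD, n = 3), a log2 change of -1.41 ± 0.56 (SE), with an unadjusted p of 0.0278 and an adjusted p of 0.346. The ARNT Flox mean was 3.33 ± 2.28 and the ARNT KO mean 1.40 ± 0.545. Here the log2 change was -1.26 ± 0.52, with an unadjusted edgeR p of 0.0332 and an adjusted p of 0.793. Leaving out single libraries moved the ARNT KO value between -1.62 and -0.55 and the AHR KO value between -1.99 and -1.10. An annotated transcript on the other strand, Gm43909, shares 1280 exonic bases, 19% of the Bhlhe41 exons.

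Rora, an activator of Bmal1 through ROR elements, had 12.4, 11.7 and 14.5 CPM in the AHR Flox libraries, 12.3, 11.9 and 11.2 in those of AHR KO, 14.3, 13.4 and 11.6 under ARNT Flox and 13.4, 13.2 and 11.3 under ARNT KO. It was the steadiest of the 9, with a 1.29-fold range over the 12 libraries and overlap between all groups. The log2 change was -0.12 ± 0.11 in AHR KO (adjusted p = 0.738) and -0.06 in ARNT KO (adjusted p = 1).

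Usp2, a deubiquitinase with a clock-driven transcript, had 62.8, 109 and 81.2 CPM in the AHR Flox libraries, 105, 79.9 and 111 in those of AHR KO, 66.1, 85.1 and 95.8 under ARNT Flox and 64.3, 93.1 and 86.7 under ARNT KO. All 4 groups overlapped, and it was the single gene of the 9 that was higher in ARNT KO replicate 3 than in the mean of the group's other libraries. The log2 change was 0.23 ± 0.22 in AHR KO (adjusted p = 0.741) and -0.02 in ARNT KO (adjusted p = 1).

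Wee1, the kinase that holds cells before mitosis, had 32.8, 38.5 and 31.1 CPM in the AHR Flox libraries, 28.8, 33.5 and 32.5 in those of AHR KO, 43.5, 42.9 and 37.2 under ARNT Flox and 43.6, 41.4 and 28.0 under ARNT KO. ARNT KO replicate 3 was the lowest of the 12 libraries. The log2 change was -0.11 ± 0.15 in AHR KO (adjusted p = 0.834) and -0.13 in ARNT KO (adjusted p = 0.995).

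**Figure D2:**
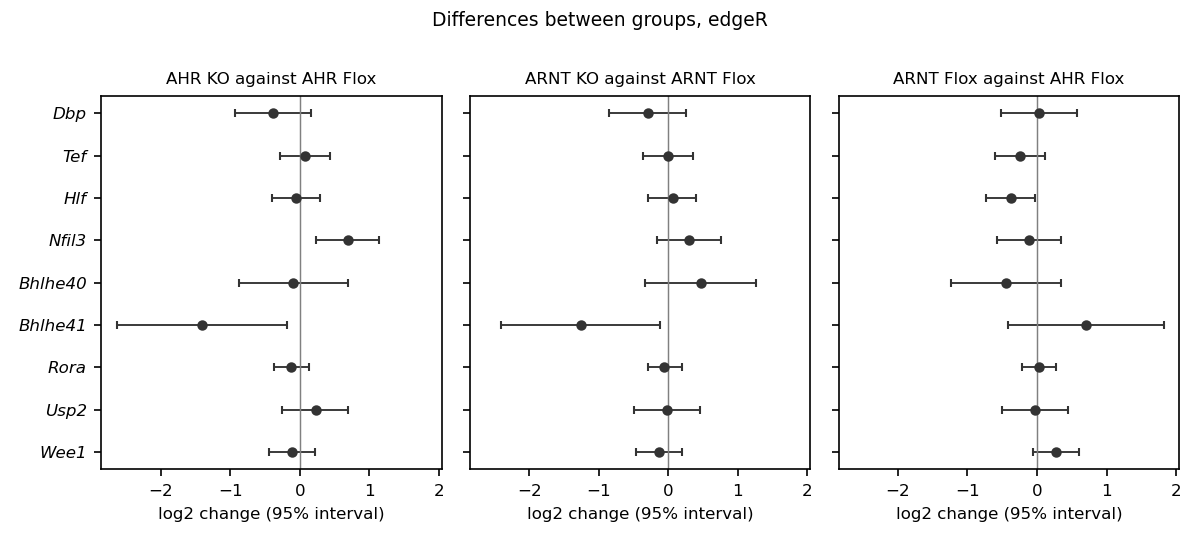
Fitted log2 changes of the 9 genes (horizontal axis) with 95% intervals. The panels show each knockout against its floxed control, and ARNT Flox against AHR Flox. The interval excludes 0 for Nfil3 and Bhlhe41 in AHR KO, for Bhlhe41 in ARNT KO and for Hlf between the floxed groups, and 0 of 9 passed an adjusted p of 0.05 in each comparison.

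ARNT KO replicate 3 lay low for several of the 9 genes. It was the lowest of the 12 libraries for Dbp, Tef, Hlf, Bhlhe40 and Wee1, 5 of the 9, and it was the lowest library for 21.5% of all tested genes. Against the mean of the group's replicates 1 and 2, Bhlhe40 was -1.59, Dbp -0.91, Tef -0.71, Nfil3 -0.69, Wee1 -0.60 and Hlf -0.58 on the log2 scale. The smaller differences were Bhlhe41 at -0.44, Rora at -0.23 and Usp2 at 0.16. The median of the 9 was -0.60, where all tested genes had a median of 0.00 and a median absolute difference of 0.30. The same library had the lowest hepatocyte marker sum, 26400 CPM against 38700 to 119000 in the other 11. Alb stood at 5740 CPM there and at 51900 and 53700 CPM in replicates 1 and 2, and Cyp2e1 at 3250 CPM against 7690 to 17800 in the other 11. The 6 markers other than Alb summed to 20700 CPM against 23400 to 41000. Of these 6, only Cyp2e1 lay below all of the other 11 libraries. Apoa1, Ttr, Hnf4a, Tat and Cps1 lay within their range, with 8, 9, 8, 5 and 10 of the 11 above. The library also had the highest sums for Kupffer cells (618 against 286 to 454), cholangiocytes (28.3 against 6.6 to 11.7) and cycling cells (50.4 against 4.2 to 16). Endothelial, stellate and lymphocyte sums lay within the range of the other libraries. The part of these markers in the levels of the 9 genes was not tested.

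Between the floxed control groups, Hlf and Tef were lower in every ARNT Flox library than in every AHR Flox library. Hlf was 1.3-fold lower (log2 change -0.38 ± 0.16, edgeR unadjusted p = 0.035, adjusted p = 0.221) and Tef differed by -0.25 ± 0.16 (adjusted p = 0.412). These were 2 of 9 whose groups did not overlap, and 35.8% of all tested genes did not overlap either. The test called 0 of 9, with 0.329% of all tested genes called. At an unadjusted p under 0.05 it gave Hlf alone, 1 of 9, with 19.9% of all. DESeq2 and limma-voom called 0 of 9. Fitted on these 2 groups alone, Hlf had the same change with an edgeR adjusted p of 0.0382. It had an adjusted p of 0.0492 when ARNT KO replicate 3 was left out of the full fit. The fit on the 2 groups alone called 1615 genes over all, where the main fit called 46. Leaving out single libraries, the full fit called 12 to 1532 genes. With the replicate number as a block, the number of genes called between the floxed groups went from 46 to 23, of which 0 were among the 9. Wee1 was higher in ARNT Flox by 0.27 ± 0.15 (adjusted p = 0.334) and Bhlhe41 by 0.70 ± 0.51 (adjusted p = 0.459), both with overlap between the groups. The marker sums of Kupffer cells (444 to 454 against 286 to 438 CPM) and stellate cells (307 to 384 against 232 to 303) were higher in ARNT Flox without overlap. So were those of endothelial cells (212 to 253 against 182 to 208) and lymphocytes (7.62 to 11.3 against 5.47 to 6.85). The 6 hepatocyte markers other than Alb summed to 23400 to 26600 CPM in ARNT Flox and 27000 to 30300 in AHR Flox. That sum was lower in ARNT Flox without overlap, as were Hlf and Tef. Taken singly, the 6 markers had log2 differences from -0.50 (Cps1) to 0.06 (Apoa1). The part of all these markers in the differences of the 9 genes was not tested.

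Levels of the 9 genes were compared with each other over the 12 libraries in 36 pairs, of which 25 had a positive and 11 a negative coefficient. Tef and Hlf moved together, with r = 0.909 on the log2 scale (permutation p = 3e-05, adjusted p = 0.00108) and Spearman's rho of 0.895 (permutation p = 0.00017, adjusted p = 0.00612). They were the single pair of 36 that passed, and 7 pairs (19.4%) had an unadjusted permutation p under 0.05. The matching shares for pairs of all genes were not computed. Without the 2 libraries farthest from the Tef median r was 0.857, and without ARNT KO replicate 3 it was 0.852 (permutation, adjusted p = 0.0176). With group means removed it was 0.886, with an exact within-group permutation p of 0.00694 and an adjusted p of 0.0833. The libraries share tissue, diet and their scaling to CPM. Closer likeness over the 12 libraries was found outside the 9 genes. Among 12258 genes compared, the 5 most like Tef had r of 0.963 to 0.974. The 5 most like Hlf had r of 0.935 to 0.966.

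**Figure D3:**
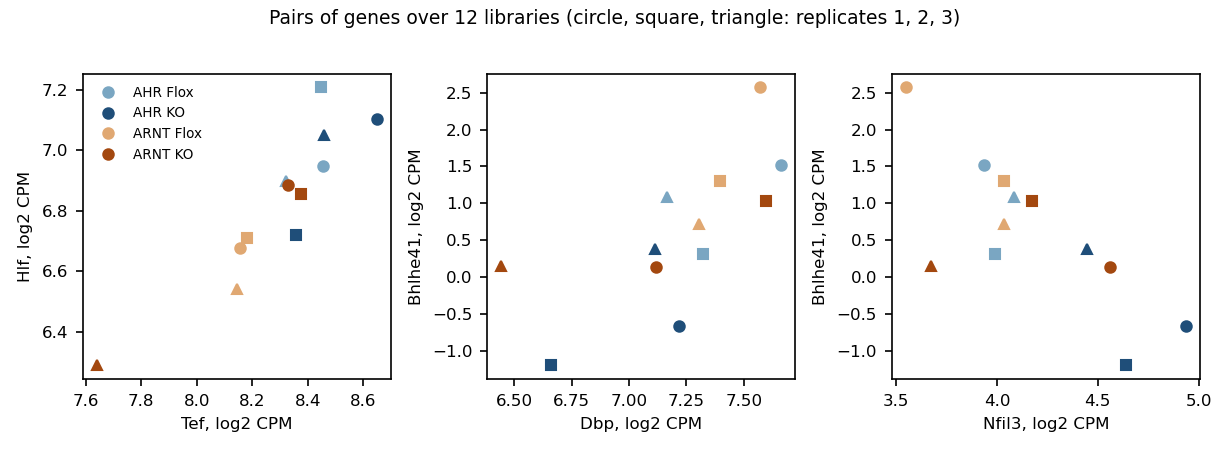
Log2 levels of the gene pairs that passed the adjusted test with all libraries or without ARNT KO replicate 3, a choice made after their values were seen, with 1 point per library coloured by genotype. Tef and Hlf are high in the same libraries over the 12 libraries, with ARNT KO replicate 3 at the low end of both.

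The relation of Dbp to Tef and to Nfil3 differed with how the libraries were taken. Dbp and Tef had r = 0.485 over the 12 libraries (permutation, adjusted p = 0.312), which became -0.142 without ARNT KO replicate 3 and 0.872 with group means removed (exact within-group permutation p = 0.00386, adjusted p = 0.0833). Dbp and Nfil3 had r = -0.198 over the 12 libraries, -0.665 without that library (permutation, adjusted p = 0.197) and 0.315 with group means removed (exact within-group permutation, adjusted p = 0.752). Nfil3 and Bhlhe41 had r = -0.757 (permutation, adjusted p = 0.0652; rho = -0.671), which was -0.559 without the 2 farthest libraries and -0.415 with group means removed. Dbp and Bhlhe41 had r = 0.694 (permutation, adjusted p = 0.092; rho = 0.734), which was 0.684 without the 2 farthest libraries and 0.578 with group means removed. Without ARNT KO replicate 3 both pairs passed, at r = -0.892 (permutation, adjusted p = 0.00972) and r = 0.809 (permutation, adjusted p = 0.0409), so that 3 pairs passed in place of 1. With group means removed, 0 pairs passed and 5 had an unadjusted p under 0.05.

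**Figure D4:**
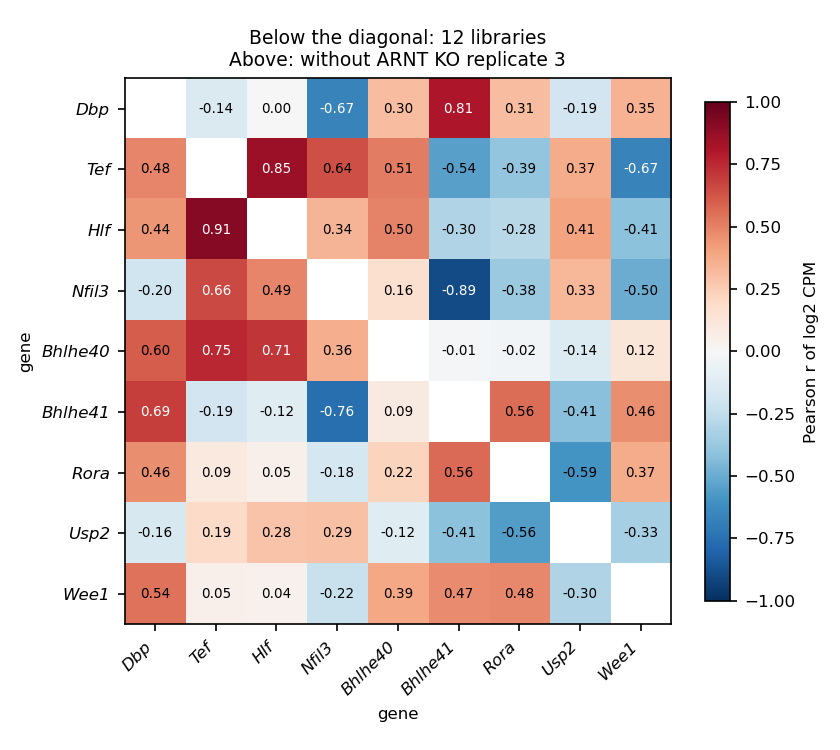
Pearson's r of log2 levels for the 36 pairs of the 9 genes over 12 libraries and over 11 without ARNT KO replicate 3, on a colour scale from -1 to 1. Dbp with Tef goes from 0.485 to -0.142 when that library is left out, while Tef with Hlf stays at 0.909 and 0.852.

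The core clock genes upstream of this output layer gave 0 calls among 14 tested of 15 listed in each of the 4 comparisons. In AHR KO 10 had a positive and 4 a negative estimate, with a median log2 change of 0.10, and the smallest p-value was that of Cry1, a repressor of CLOCK and BMAL1, at 0.69 ± 0.21 (edgeR adjusted p = 0.198). Cry1 stood at 10, 15.5 and 13.4 CPM in AHR Flox and 20.3, 24.3 and 18.4 in AHR KO. The 3 AHR KO libraries were the higher ones without overlap, as for Nfil3. In ARNT KO the median was 0.06, with Arntl (the gene of BMAL1) at 0.71 ± 0.40 (adjusted p = 0.884) and Nr1d1 (REV-ERB alpha) at -0.60 ± 0.37 (adjusted p = 0.911). Arntl was scarce, at 0.712 to 2.49 CPM, and Nr1d1 ranged from 37.5 to 147 CPM. Clock and Cry1 had the smallest p-values for the difference between the knockouts, at 0.39 (adjusted p = 0.478) and -0.52 (adjusted p = 0.653).

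Liver genes known as targets of the PAR bZIP factors or NFIL3 gave 0 calls among 11 tested of 11 listed in each comparison. In AHR KO 7 estimates were positive and 4 negative, with a median of 0.33. Por, the electron donor of microsomal cytochromes P450, had 636, 939 and 684 CPM in AHR Flox and 1320, 1030 and 1290 in AHR KO, with no overlap. As with Cry1, the AHR KO libraries were the higher ones, as they were for the sum of the 6 hepatocyte markers other than Alb. Taken singly, those 6 markers had log2 changes from -0.23 (Cps1) to 0.63 (Cyp2e1), and their part was not tested. The log2 change of Por was 0.69 ± 0.19 (adjusted p = 0.16), and Cyp2a5 came next at 0.52 (adjusted p = 0.611). In ARNT KO 3 were positive and 8 negative, with a median of -0.07, led by the acyl-CoA thioesterase Acot2 at -0.31 (adjusted p = 0.948) and the haem synthesis enzyme Alas1 at -0.33 (adjusted p = 0.995). Between the floxed groups the median was 0.14, with Cyp2a4 at 1.03 (adjusted p = 0.214) and Acot2 at 0.55 (adjusted p = 0.221). Cyp2a4 and Cyp2a5 are near-identical copies, and how reads were shared between them is not given in the sources used here.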

How the data were processed

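The 12 poly-A RNA libraries of mouse liver, 3 per genotype, were analysed from the deposited table of whole-number read counts per gene. Per the submitters' processing notes, the authors used bcl2fastq 2.20, STAR 2.5.4b and 2.6.0c, R 3.5.1, DESeq2 1.20.0 and build mm10. The counting tool, its annotation and its strand setting are all not given in the sources at hand. These deposited counts were fitted with edgeR 4.0.16 (TMM scaling, filterByExpr with a minimum count of 10, a quasi-likelihood fit over all 4 groups) and p-values were adjusted by Benjamini-Hochberg over all 13968 tested genes. A call is an adjusted p under 0.05. CPM use TMM-scaled totals. Correlations used log2 CPM with a prior count of 0.5, with 100000 permutations, or 1296 exact permutations within groups. The fit was tested on simulated counts. Alternatives were no filter, DESeq2 size factors as scaling, TMM without the 50 most abundant genes, DESeq2 1.42.0, limma-voom 3.58.1, the compared groups alone, a replicate block and leaving out each library.

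The 9 genes and the other lists were chosen with earlier results of these data known. All 9 are named. Of each other list the called genes are named, otherwise the 2 with the smallest p-values in a comparison. For Dbp, Tef, Hlf and Nfil3 the 5 genes of highest r are named. Some genes that these rules select are not reported here. The labels do not pair same-numbered libraries. Their deviations from group means correlated at 0.314, 0.141 and 0.109 between AHR Flox and ARNT Flox, and at -0.13 to 0.228 between other groups, where not every pair of a comparison passed 0.1.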

Additional observations from a re-analysis of the deposited data

How the results depend on the processing

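Of 675 values of the 9 genes under alternatives, 631 kept their direction and their side of the threshold, 42 changed direction and 2 passed the threshold. The 2 that passed are Hlf between the floxed groups, with the compared groups alone and without ARNT KO replicate 3. All 42 came from leaving out 1 library. The number of genes called depended on the tool: DESeq2 called 359 genes in AHR KO (main 11), 56 in ARNT KO (main 8), 148 for the difference between the knockouts (main 6) and 572 between the floxed groups (main 46). Without a filter AHR KO had 28. In ARNT KO limma-voom called 5 and the compared groups alone 1. The floxed groups alone gave 1615, of which 1 was among the 9. With a replicate block ARNT KO had 3 and the floxed groups 23. The block changed no call of the 9. Leaving out a library gave 5 to 136 genes in AHR KO, 1 to 193 in ARNT KO, 1 to 194 for the difference and 12 to 1532 between the floxed groups, of which 0 to 1 were among the 9. Of the pairs, 0 passed with group means removed and 3 without ARNT KO replicate 3. The cause was not tested.

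Left-out libraries moved the log2 change in AHR KO from -0.01 to 0.14 for Tef, from -0.14 to 0.04 for Hlf and from -0.29 to 0.14 for Bhlhe40. In ARNT KO it ran from -0.13 to 0.19 for Tef, from -0.04 to 0.23 for Hlf, from -0.14 to 0.02 for Rora, from -0.15 to 0.13 for Usp2 and from -0.25 to 0.05 for Wee1. The difference between the knockouts ran from -0.22 to 0.34 for Dbp, from -0.21 to 0.12 for Tef, from -0.20 to 0.86 for Bhlhe41, from -0.02 to 0.15 for Rora and from -0.13 to 0.17 for Wee1. Between the floxed groups it ran from -0.08 to 0.18 for Dbp, from -0.20 to 0.03 for Nfil3, from -0.01 to 1.02 for Bhlhe41, from -0.04 to 0.12 for Rora and from -0.21 to 0.19 for Usp2. The adjusted p of Nfil3 in AHR KO ran from 0.0642 to 0.523 over all alternatives. With 13 to 199 counts per library, Bhlhe41 is the gene whose precision depth limits most.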

Other observations

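Other rhythmic liver transcripts gave 0 calls among 14 tested in each comparison. In AHR KO 11 estimates were positive and 3 negative. Tspan4, a tetraspanin, had 35.6, 44.6 and 35 CPM in AHR Flox and 61.7, 62.9 and 97.1 in AHR KO. The groups did not overlap, and the log2 change was 0.95 ± 0.16 (edgeR adjusted p = 0.0606). Nampt, the rate-limiting enzyme of NAD salvage, had a log2 change of 0.41 ± 0.12 (adjusted p = 0.199). In ARNT KO, Leo1 had 0.49 (adjusted p = 0.815) and Cdkn1a, the gene of the cell cycle inhibitor p21, 1.79 ± 0.79 (adjusted p = 0.82). Cdkn1a stood at 95.4 CPM in ARNT KO replicate 3 and at 6.95 and 9.15 CPM in the group's other libraries. Between the floxed groups Elovl3, a fatty acid elongase, had a log2 difference of -2.32 ± 0.78 (edgeR adjusted p = 0.168). Elovl3 was scarce and uneven, at 0.647, 1.57 and 4.51 CPM in AHR Flox and 0.387, 0.407 and 0.545 in ARNT Flox.

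Genes that respond to temperature gave 0 calls among 7 tested in each comparison. All 7 had positive estimates in AHR KO, from 0.28 to 0.42. Rbm3, a cold-induced RNA-binding protein, had 0.42 ± 0.11 (edgeR adjusted p = 0.139) and Dnajb1, a heat shock co-chaperone, 0.35 (adjusted p = 0.551). In ARNT KO 6 of 7 estimates were positive, with a median of 0.17.

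Over the 12 libraries and 12258 genes with a mean of at least 1 CPM, the genes whose log2 levels were most like Dbp were Klb (r = 0.929), Casp6 (0.922), Nfix (0.916), Gtpbp1 (0.905) and C030006K11Rik (0.901). Those most like Tef were Cyp2b9 (0.974), Rsph3a (0.974), Slc2a9 (0.971), Dpys (0.966) and Usf2 (0.963). Among those most like Hlf were Smoc1 (0.966), Zhx1 (0.949) and Slc2a5 (0.935). For Nfil3 they were Akr1c12 (0.913), 4833442J19Rik (0.911), Irf2bp2 (0.91), Gm16157 (0.907) and Gm2382 (0.907). These are the highest values among all genes compared and are a description only. The libraries share scaling and ARNT KO replicate 3, without which Klb with Dbp had 0.87 and Cyp2b9 with Tef 0.93.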
